A study of Mus musculus with 4 samples.

Results

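The genes described here are the Wnt ligands, their Frizzled and LRP receptors, the secreted proteins and membrane enzymes that tune reception of the signal, and the factors that carry it to the nucleus. They were chosen by symbol among the protein-coding genes of the count table, and 59 of 21843 protein-coding genes matched. The matches were 19 Wnt genes, 10 Frizzled genes (Fzd), 4 secreted Frizzled-related proteins (Sfrp), 4 Dickkopf genes (Dkk), 4 R-spondins (Rspo), 3 R-spondin receptors (Lgr4, Lgr5, Lgr6), Axin1 and Axin2, 4 TCF and LEF factors, Lrp5 and Lrp6, and the single genes Wif1, Notum, Ctnnb1, Apc, Znrf3, Rnf43 and Nkd1. Frzb, also known as Sfrp3, does not carry an Sfrp symbol and was not a member.

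The data were 4 RNA-seq libraries from 4 cultures of mouse cortical astrocytes, which form 1 group with no treatment contrast. Wild-type CD-1 mice, an outbred strain, were used at postnatal day 4, and glial cells of the frontal cortex were grown in serum medium with B27 and 10 ng/ml EGF. After 6 days in vitro, 200000 cells were placed in each dish, and 3 days on, following 1 h in Ham's medium without serum, total RNA was isolated. No antibody, sorting step, number of animals per culture or separate preparation is given in the labels, so the spread between libraries may be technical in part. The libraries held 37300485 to 42369109 counts. Culture 4 stood apart, with a chi-square per degree of freedom of 39.3 to 41.1 against each of cultures 1 to 3, while those differed from each other by 2.11 to 3.17. Its values are therefore given apart from the other 3 wherever values per library are printed, while a mean ± SD of 4 libraries includes it.

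Wnt proteins are secreted, lipid-modified signals that bind Frizzled receptors together with the co-receptors Lrp5 and Lrp6. In the canonical branch this frees beta-catenin (Ctnnb1) from a degradation complex built on Axin and Apc, and beta-catenin then acts on genes through TCF and LEF factors. Other Wnt proteins, Wnt5a among them, act largely without beta-catenin on cell polarity and calcium. In the brain, Wnt7a and Wnt7b from neural cells are known for directing vessel growth and the blood-brain barrier.

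Levels are given as counts scaled to a library total of 1000000 (CPM), and levels of different genes are compared as CPM per kilobase of the combined exon length in the table (RPKM). A gene counted as expressed where all 4 libraries had 1 CPM or more, and 3 counts or fewer over all libraries was taken as the floor. By this rule 35 of the 59 members were expressed, which is 59.3%, against 58.1% of all protein-coding genes. Expression was spread unevenly over the roles. All 10 Frizzled receptors, both LRP co-receptors and all 5 intracellular members (Ctnnb1, Apc, Axin1, Axin2, Nkd1) were expressed, as were 3 of 4 TCF and LEF factors and 5 of 10 secreted inhibitors. Only 6 of 19 ligands and 4 of 9 genes of the R-spondin axis reached the minimum. Among members whose counts were whole numbers in every library 25 were expressed, and 10 of the 59 had a count that was not whole in at least 1 library.

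**Figure D1:**
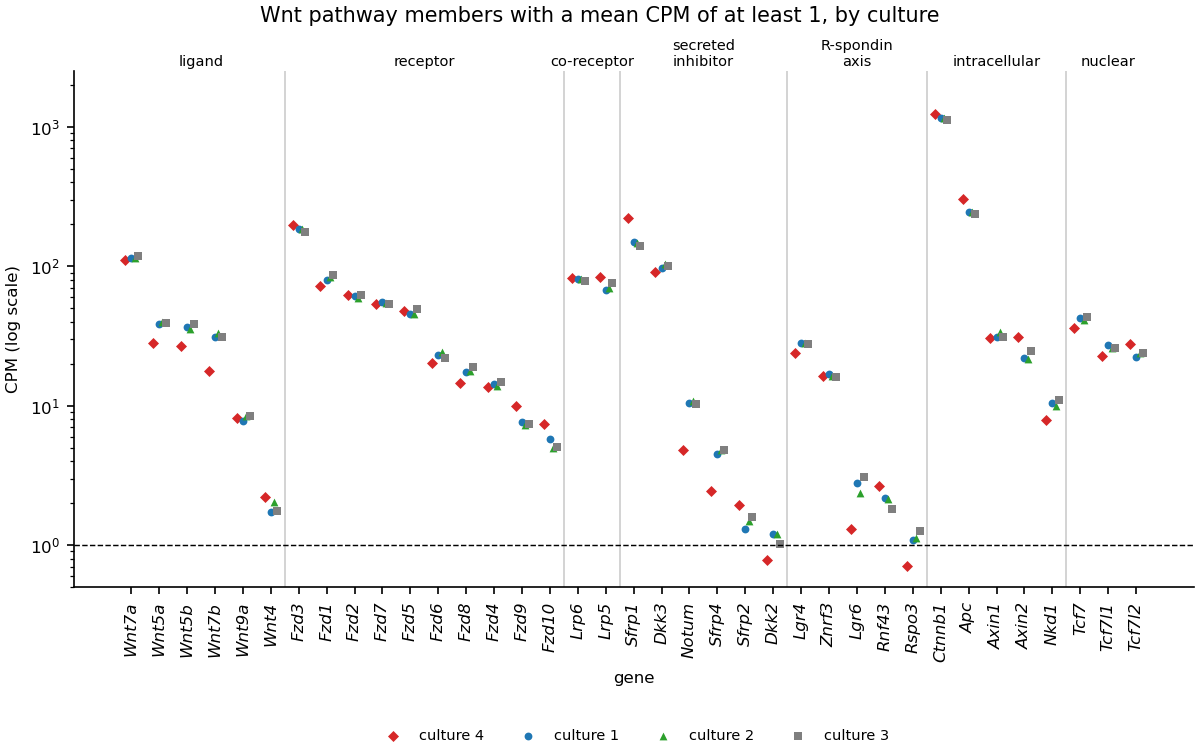
CPM on a log axis for the 37 members with a mean CPM of at least 1, grouped by role, with 1 point per culture. The dashed line marks 1 CPM. Ctnnb1 is the highest member at 1120 to 1229 CPM, and culture 4 lies apart from cultures 1 to 3 for Notum, Sfrp4, Lgr6 and Wnt7b.

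Of the ligands, Wnt7a was the most abundant per length, followed by Wnt5b, Wnt7b, Wnt5a, Wnt9a and Wnt4. Wnt7a (GeneID 22421; GRCm38.p6 chromosome 6, 91363981 to 91411353, minus strand) had 34.8 RPKM in culture 4, against 35.9, 36.2 and 37.2 RPKM in cultures 1, 2 and 3. It varied by less than any other expressed ligand in proportion to its level, with 114 ± 3.11 CPM (SD, n = 4). Wnt5b (GeneID 22419; chromosome 6, 119432531 to 119544824, minus strand) had 9.07 RPKM in culture 4, against 12.4, 12.2 and 13.2 RPKM in cultures 1, 2 and 3. Wnt7a was above Wnt5b in all 4 libraries, by a log2 RPKM ratio of 1.64 ± 0.20 (SD, n = 4) or 3.11-fold. With 4 paired values an exact two-sided sign-flip test cannot give a p below 1 in 8, so ratios between genes are given with their SD and without a p.

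Wnt7a held 58.5 ± 3.49% of the summed RPKM of the 19 ligands (SD, n = 4). Its share was 63.7% in culture 4 and 56.6% to 57.0% in cultures 1 to 3. Wnt5b held 18.8 ± 1.56%, its paralogue Wnt5a 6.91 ± 0.58% and the Wnt7a paralogue Wnt7b 10.3 ± 1.97%. Each step in the order of the 6 expressed ligands, down to Wnt4 at 0.51 ± 0.06 RPKM, was in the same direction in all 4 libraries and larger than 2 SD of its log2 ratio. In CPM, where length is not taken into account, Wnt5a (36.5 ± 5.57) stood beside Wnt5b (34.4 ± 5.32), and Wnt9a (8.20 ± 0.33) and Wnt4 (1.94 ± 0.24) kept the lowest places. The span of Wnt5b, introns included, overlaps that of Fbxl14 on the other strand, which had 32.5 CPM. Overlap of their exons was not checked, and whether strand was used in counting is unknown from the labels. Whether these genes share reads is therefore not known.

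**Figure D2:**
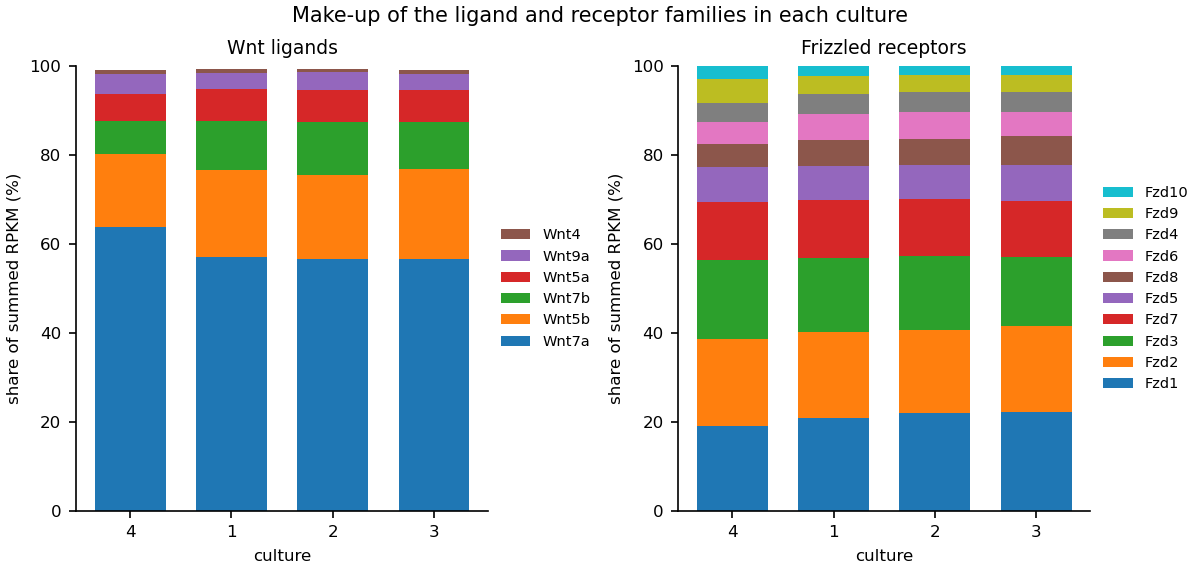
Share of the summed RPKM of the 19 Wnt ligands (left) and the 10 Frizzled receptors (right) held by each expressed member in each culture. Wnt7a takes 56.6% to 63.7% of the ligand sum, while no Frizzled receptor takes more than 22.1%; the gap below 100% on the left is the 13 ligands that were not expressed.

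The other 13 ligands were under the minimum. Wnt2, at 0.94 ± 0.30 CPM, came closest, with 0.61 CPM in culture 4 and 0.90, 0.90 and 1.34 CPM in cultures 1, 2 and 3. Wnt2b had 0.39 CPM, Wnt10b 0.20 CPM, Wnt11 0.13 CPM and Wnt3 0.10 CPM. Wnt16, Wnt6, Wnt9b, Wnt10a and Wnt8b had 10, 6, 6, 4 and 4 counts over all libraries. No read was counted for Wnt1, Wnt3a or Wnt8a in any library, where 3 counts would be 0.0708 to 0.0804 CPM. Wnt1 and Wnt3a are widely used as activators of the canonical branch, and their transcripts were not detectable at this depth. Intervals and floors of this kind cover counting error only, since reads copied by PCR are not independent molecules.

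The receptors were much more evenly spread than the ligands. Fzd1 (GeneID 14362; chromosome 5, 4753839 to 4758216, minus strand) had 16.5 RPKM in culture 4, against 18.3, 19.2 and 19.6 RPKM in cultures 1, 2 and 3. Fzd2 (GeneID 57265) had 17.04 RPKM in culture 4, against 17.0, 16.3 and 17.1 RPKM in cultures 1, 2 and 3. These were not told apart, as Fzd1 was higher in cultures 1 to 3 and lower in culture 4, with a log2 ratio of 0.12 ± 0.13 (SD, n = 4). Fzd3, a receptor with a known part in axon tracts and planar polarity, followed at 14.6 ± 0.62 RPKM and Fzd7 at 11.3 ± 0.11 RPKM. Without length, at 185.8 ± 7.90 CPM, Fzd3 was the highest Frizzled and Fzd1 came next at 80.5 ± 6.05 CPM, because the exons of Fzd3 add up to 12742 bases.

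Fzd5 had 6.82 ± 0.30 RPKM, Fzd8 5.13 ± 0.55 RPKM and Fzd6 4.88 ± 0.39 RPKM. Fzd4, the receptor of Norrin, had 3.83 ± 0.14 RPKM, Fzd9 3.82 ± 0.59 RPKM and Fzd10 1.93 ± 0.37 RPKM. Fzd8 and Fzd6 were not told apart, and neither were Fzd4 and Fzd9. With the longest GENCODE transcript as the length both pairs turned round, to log2 ratios of -0.85 and -0.73. GENCODE lists 5974 bases for Fzd8 and 6720 bases for Fzd4, against combined exons of 3346 and 3685 bases. Reads in the extra bases may not have been counted, which would lower the GENCODE values of Fzd8 and Fzd4. The span of Fzd4 overlaps that of Tmem135 on the other strand, which had 63.4 CPM, and overlap of their exons was not checked.

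**Figure D3:**
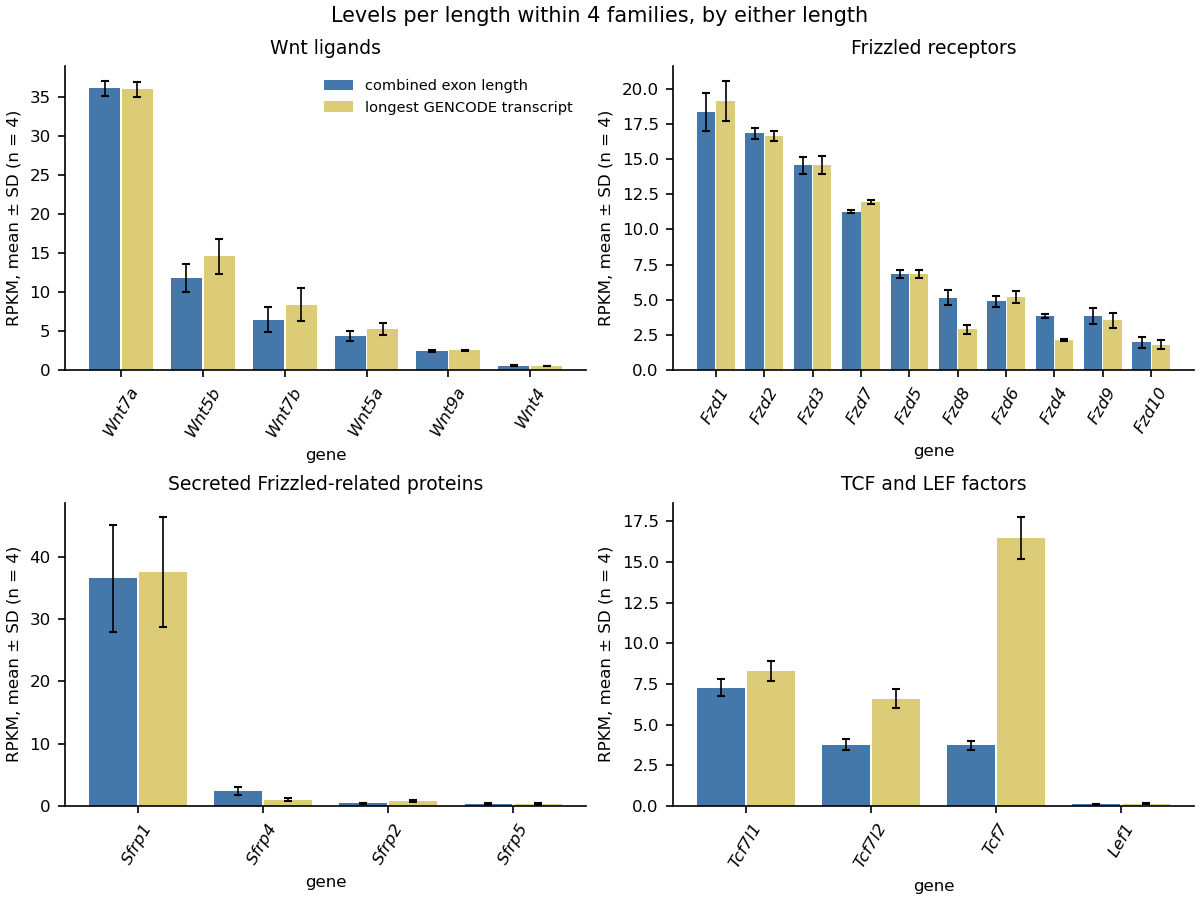
Mean RPKM ± SD over the 4 cultures (n = 4) for Wnt ligands, Frizzled receptors, secreted Frizzled-related proteins and TCF and LEF factors, with the combined exon length of the table (blue) and with the longest protein-coding GENCODE transcript (yellow). The order of the ligands is the same by either length, while Tcf7 is at 3.72 RPKM by the first and at 16.5 RPKM by the second.

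Both co-receptors were expressed, and which was higher depended on the scale. Lrp5 had 83.0 CPM in culture 4, against 67.4, 70.2 and 75.7 CPM in cultures 1, 2 and 3. Lrp6 had 81.7 CPM in culture 4, against 80.5, 80.6 and 77.8 CPM in cultures 1, 2 and 3. Lrp5 was above Lrp6 by a log2 RPKM ratio of 0.73 ± 0.13 (SD, n = 4), or 1.66-fold, and in all 4 libraries. In CPM the direction turned round, with 74.1 ± 6.90 for Lrp5 and 80.1 ± 1.66 for Lrp6, since the exons of Lrp6 are the longer ones.

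Promoters of RefSeq (GRCm38.p6) were found for 38 of the 59 members. They are shown for the leading ligand Wnt7a, for Fzd1, the top Frizzled per length, and for the feedback inhibitor Axin2, as the 250 bases before a start site, 5′ to 3′ on the strand of the gene. Capitals mark the core of the TCF and LEF motif, CTTTGA on either strand, which appears as TCAAAG where it lies on the other strand. The Wnt7a stretch is chr6:91411354-91411603 (minus strand), that of Fzd1 chr5:4758217-4758466 (minus strand) and that of Axin2 chr11:108920099-108920348 (plus strand), which precedes an internal start of the gene.
Wnt7a: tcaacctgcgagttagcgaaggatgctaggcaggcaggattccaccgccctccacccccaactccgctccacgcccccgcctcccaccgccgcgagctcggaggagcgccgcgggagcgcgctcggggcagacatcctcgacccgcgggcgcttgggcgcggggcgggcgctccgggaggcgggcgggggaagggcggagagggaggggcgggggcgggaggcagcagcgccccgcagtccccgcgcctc
Fzd1: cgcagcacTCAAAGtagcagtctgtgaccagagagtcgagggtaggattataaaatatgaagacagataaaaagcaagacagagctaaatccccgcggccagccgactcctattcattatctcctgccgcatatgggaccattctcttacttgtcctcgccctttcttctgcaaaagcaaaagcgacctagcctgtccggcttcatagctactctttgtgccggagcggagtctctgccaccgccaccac
Axin2: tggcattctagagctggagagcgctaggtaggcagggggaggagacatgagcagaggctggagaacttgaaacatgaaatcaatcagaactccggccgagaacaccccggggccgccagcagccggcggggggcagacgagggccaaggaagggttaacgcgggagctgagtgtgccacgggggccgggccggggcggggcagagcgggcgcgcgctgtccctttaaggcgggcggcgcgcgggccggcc
The core was in the Fzd1 stretch and not in the others. Over all members it was in 5 of 38 genes with a promoter (13.2%), namely Dkk1, Fzd1, Lef1, Wnt11 and Wnt5b, against 15.8% of all genes of the RefSeq table. Of these 5 genes only Fzd1 and Wnt5b were expressed. A match of 6 letters is a description of the sequence and not a binding site. The stretches also differed in base composition, with 77.6% G and C and 34 CG dinucleotides for Wnt7a, 51.2% and 12 for Fzd1, and 69.2% and 24 for Axin2.

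Among secreted inhibitors, Sfrp1 and Dkk3 were near the level of the leading ligand per length. Secreted Frizzled-related proteins carry a Frizzled-like domain that binds Wnt proteins. Sfrp1 (GeneID 20377; chromosome 8, 23411383 to 23449632, plus strand) had 49.4 RPKM in culture 4, against 33.2, 32.4 and 31.2 RPKM in cultures 1, 2 and 3, and made up 91.8 ± 2.74% of the Sfrp sum (SD, n = 4). Sfrp4 had 1.38 RPKM in culture 4, against 2.56, 2.72 and 2.74 RPKM in cultures 1, 2 and 3. Sfrp1 was higher and Sfrp4 lower in culture 4 than in each other culture, and their log2 ratio was 5.16 in culture 4 and 3.51 to 3.70 in cultures 1 to 3. Its mean was 3.98 ± 0.79 (SD, n = 4) or 15.8-fold, which became 40.4-fold without the length term and 37.4-fold with GENCODE lengths. The GENCODE transcript of Sfrp4 has 4049 bases, against combined exons of 1760 bases. Sfrp2 had 1.58 ± 0.26 CPM and Sfrp5 0.60 ± 0.19 CPM.

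Dkk3 had 25.3 RPKM in culture 4, against 27.2, 28.7 and 28.0 RPKM in cultures 1, 2 and 3. It is the divergent member of the Dickkopf family, and is not known to block LRP co-receptors as Dkk1 does. The LRP-binding members were low or at the floor. Dkk2 had 0.21 RPKM in culture 4, against 0.32, 0.32 and 0.27 RPKM in cultures 1, 2 and 3, and its mean of 1.05 ± 0.20 CPM lay on both sides of the minimum. Dkk1 had 3 counts in all and Dkk4 none. The log2 RPKM ratio of Dkk3 to Dkk2 was 6.64 ± 0.23 (SD, n = 4), or 99.7-fold. Notum, a secreted enzyme that removes the lipid from Wnt proteins, had 9.07 ± 2.83 CPM, and the Wnt-binding protein Wif1 had 0.24 ± 0.08 CPM.

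R-spondins raise Wnt reception by binding LGR receptors and drawing away the ubiquitin ligases Znrf3 and Rnf43, which otherwise remove Frizzled proteins from the surface. In these cultures the receptor Lgr4 and the ligase Znrf3 were expressed well above the rest of the axis. Lgr4 had 4.72 RPKM in culture 4, against 5.59, 5.56 and 5.51 RPKM in cultures 1, 2 and 3. Lgr6 had 0.19 RPKM in culture 4, against 0.40, 0.34 and 0.45 RPKM in cultures 1, 2 and 3. Lgr4 was above Lgr6 by a log2 ratio of 4.02 ± 0.45 (SD, n = 4) or 16.3-fold, and Lgr5, a marker of stem cells in other tissues, had 0.64 ± 0.31 CPM.

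Znrf3 had 2.14 RPKM in culture 4, against 2.22, 2.13 and 2.08 RPKM in cultures 1, 2 and 3. Rnf43 had 2.64 CPM in culture 4, against 2.17, 2.14 and 1.82 CPM in cultures 1, 2 and 3. The R-spondins themselves were not expressed by the rule. Rspo3 had 0.30 RPKM in culture 4, against 0.46, 0.47 and 0.53 RPKM in cultures 1, 2 and 3, which was 1.05 ± 0.24 CPM. Rspo1 had 0.089 RPKM in culture 4, against 0.23, 0.12 and 0.13 RPKM in cultures 1, 2 and 3. Rspo3 was above Rspo1 by a log2 RPKM ratio of 1.67 ± 0.49 (SD, n = 4). Rspo2 had 12 counts and Rspo4 1 count over all libraries.

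Ctnnb1, which encodes beta-catenin, a protein of cell junctions as well as of Wnt signalling, was the most abundant member and stood at place 56 of all 45703 genes in CPM. Ctnnb1 (GeneID 12387; chromosome 9, 120933400 to 120960507, plus strand) had 1229 CPM in culture 4, against 1159, 1149 and 1120 CPM in cultures 1, 2 and 3. Apc, the large scaffold of the degradation complex, had 301.3 CPM in culture 4, against 245.2, 243.1 and 238.5 CPM in cultures 1, 2 and 3. Axin1 is the constitutive scaffold of that complex and Axin2 a feedback inhibitor that canonical signalling induces in many tissues. Axin1 had 7.33 RPKM in culture 4, against 7.47, 8.05 and 7.46 RPKM in cultures 1, 2 and 3. Axin2 (GeneID 12006; chromosome 11, 108917828 to 108950783, plus strand) had 5.69 RPKM in culture 4, against 4.04, 3.95 and 4.50 RPKM in cultures 1, 2 and 3. Axin1 was above Axin2 in all 4 libraries, by a log2 RPKM ratio of 0.37 in culture 4 and of 0.73 to 1.03 in cultures 1 to 3. Nkd1, a feedback inhibitor that binds Dishevelled, had 7.91 CPM in culture 4, against 10.4, 9.98 and 11.0 CPM in cultures 1, 2 and 3.

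In the nucleus, 3 TCF genes were expressed and Lef1 was not, at 0.51 ± 0.12 CPM. Which TCF gene led depended on the length used. Tcf7l1, best known as a repressor, had 6.51 RPKM in culture 4, against 7.79, 7.42 and 7.39 RPKM in cultures 1, 2 and 3. Tcf7l2 had 4.23 RPKM in culture 4, against 3.44, 3.70 and 3.70 RPKM in cultures 1, 2 and 3. Tcf7l1 was above Tcf7l2 by a log2 RPKM ratio of 0.95 ± 0.24 (SD, n = 4) or 1.93-fold, but by 1.04-fold without the length term. Tcf7 had 3.72 ± 0.29 RPKM by its combined exons of 10946 bases. By the longest GENCODE transcript, of 2471 bases, it had 16.5 ± 1.29 RPKM and held 52.2 ± 1.90% of the summed TCF and LEF level, and it also led in CPM at 40.7 ± 3.18. The span of Tcf7 overlaps that of Skp1 on the other strand, which had 402.9 CPM, and overlap of their exons was not checked.

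Across the 9 families of more than 1 gene, the top member by mean RPKM was above every other member in all 4 libraries in 8, the exception being the Frizzled family. Of 21 steps between neighbours in the order where both genes were expressed, 17 were larger than 2 SD and in the same direction in every library. The steps not told apart were Fzd1 and Fzd2, Fzd8 and Fzd6, Fzd4 and Fzd9, and Tcf7l2 and Tcf7. The length of a gene is the same in every library, so these SDs leave out any error in length.

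Of the other genes of the pathway on the lists used here, 106 of 121 were expressed (87.6%, against 59.3% of the members and 58.1% of all protein-coding genes). All 8 genes of Wnt secretion were expressed, led per length by Tmed10 and Vps35 at 77.2 ± 1.61 and 71.4 ± 0.92 RPKM (183.6 and 65.7 RPKM by GENCODE lengths), among them Porcn, the enzyme that attaches the lipid, at 14.9 ± 0.84 CPM and the carrier Wls at 91.2 ± 11.4 CPM. All 19 cytoplasmic transducers were expressed, with Ppp2ca at 234 RPKM and Gsk3a at 46.3 RPKM as the highest by combined exons. By GENCODE lengths Csnk1a1 was the highest at 104.6 RPKM and Ppp2ca had 63.7 RPKM. The GENCODE transcript of Ppp2ca has 7102 bases, against combined exons of 1930 bases. Reads in the extra bases may not have been counted, which would lower its GENCODE value. Of 17 nuclear cofactors 16 were expressed, led by Tle5 and Ctnnbip1 at 234 ± 6.87 and 184 ± 6.73 RPKM. Of 19 genes of the non-canonical branch 17 were expressed, with Daam2 at 41.4 ± 0.68 RPKM (121.7 RPKM by its GENCODE length) and the receptor Ryk at 33.8 ± 1.77 RPKM. The shares were lowest for further antagonists, with 12 of 16 expressed (75.0%), and for reported targets, with 19 of 27 (70.4%). No read was counted for the targets Mmp7 and Cdx1. All 12 heparan sulfate genes and all 4 genes of Norrin and the vessel co-receptors were expressed. Norrin (Ndp), which signals through Fzd4 and Lrp5, had 14.7 ± 1.96 RPKM, and its co-receptor Tspan12 had 52.7 ± 3.16 RPKM.

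Culture 4 lay outside the range of cultures 1 to 3 for most members, and by more than 1.5-fold for few. Among the 37 members that averaged 1 CPM or more, 5 were more than 1.5-fold lower in culture 4 than the mean of cultures 1 to 3 (13.5%, against 5.48% of all 15217 such genes), and 1 was more than 1.5-fold higher (against 2.22% of all such genes). The median log2 difference was -0.06 for the members and 0.03 for all such genes. Culture 4 lay below each of cultures 1 to 3 for 19 members (35.2% of all genes did so) and above each for 13 (47.0% of all genes). These are values of a single library, and no test was made. Cultures 1 to 3 differed from each other by at most 1.30-fold for any of the 37, the widest being Lgr6.

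Notum (GeneID 77583; chromosome 11, 120653788 to 120661193, minus strand) had 4.84 CPM in culture 4, against 10.4, 10.7 and 10.3 CPM in cultures 1, 2 and 3. That is 2.17-fold lower, with a log2 difference of -1.10. Lgr6 had 1.30 CPM in culture 4, against 2.77, 2.38 and 3.08 CPM in cultures 1, 2 and 3, or 2.11-fold lower on 379.3 counts in all. Sfrp4 had 2.43 CPM in culture 4, against 4.50, 4.79 and 4.83 CPM in cultures 1, 2 and 3, or 1.94-fold lower. In each of these genes culture 4 was well outside the range of the other 3.

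Wnt7b had 17.8 CPM in culture 4, against 30.8, 33.4 and 31.1 CPM in cultures 1, 2 and 3, or 1.79-fold lower, while its paralogue Wnt7a was 1.05-fold lower. Rspo3 had 0.71 CPM in culture 4, against 1.10, 1.12 and 1.26 CPM in cultures 1, 2 and 3. It was 1.64-fold lower on 167 counts in all, and it no longer passed the fold without culture 3 in the mean, at a log2 difference of -0.58, or with a pseudocount of 0.5 CPM in place of 0.1 CPM, at -0.46. Sfrp1 was the member that was higher, with 221.7 CPM in culture 4, against 149.1, 145.6 and 140.1 CPM in cultures 1, 2 and 3. That is 1.53-fold, and with TMM or RLE library sizes it fell just short of the fold, at a log2 difference of 0.58.

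Further members moved by less than 1.5-fold. Wnt5a had 3.31 RPKM in culture 4, against 4.54, 4.70 and 4.61 RPKM in cultures 1, 2 and 3, and Wnt5b was 1.39-fold lower as well. Axin2 was 1.37-fold higher in culture 4, Fzd10 1.40-fold and Fzd9 1.33-fold. Nkd1 was 1.32-fold lower. The feedback inhibitors Axin2, Notum and Nkd1 thus did not share a direction.

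**Figure D4:**
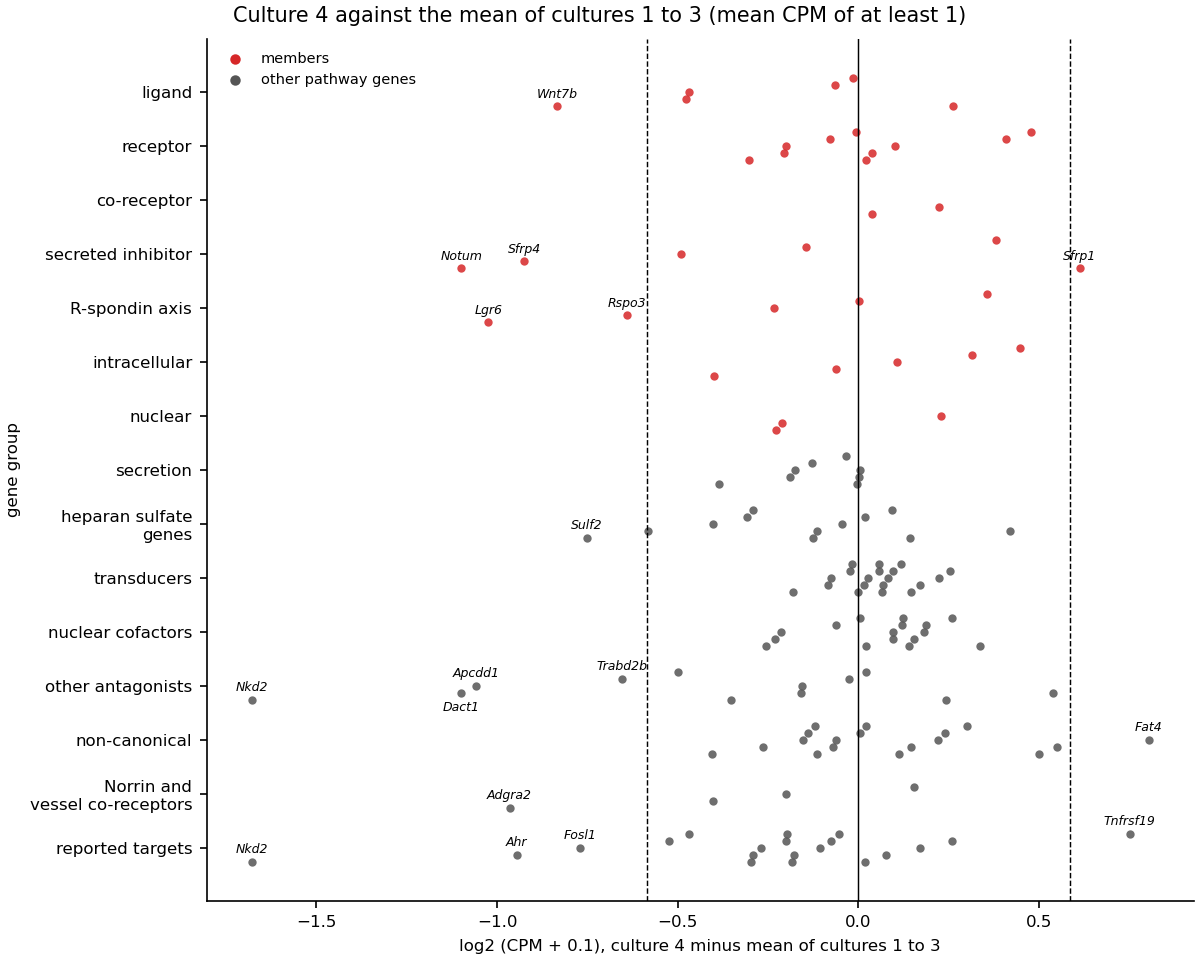
Log2 (CPM + 0.1) of culture 4 minus that of the mean of cultures 1 to 3, for members by role (red) and for other pathway genes by list (grey), each averaging 1 CPM or more. Dashed lines mark 1.5-fold, and genes beyond them are named; 5 members lie beyond the lower line and Sfrp1 beyond the upper one. Nkd2 is in 2 lists and is drawn in both.

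Of the 108 other pathway genes that averaged 1 CPM or more, 8 were more than 1.5-fold lower in culture 4 (7.41%) and 2 more than 1.5-fold higher (1.85%). Over all 15217 genes at that level the shares were 5.48% and 2.22%. The lower pathway genes included 4 of 12 further antagonists (33.3%). Nkd2, the paralogue of Nkd1, had 1.27 CPM in culture 4, against 4.24, 3.79 and 4.88 CPM in cultures 1, 2 and 3. Apcdd1, a membrane antagonist, had 4.56 CPM in culture 4, against 9.59, 9.53 and 9.68 CPM in cultures 1, 2 and 3. Dact1, which binds Dishevelled, had 5.81 CPM in culture 4, against 13.1, 12.6 and 11.9 CPM in cultures 1, 2 and 3. Trabd2b, a protease that cuts Wnt proteins, fell by 0.65 on the log2 scale in culture 4.

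Adgra2 (Gpr124), the vessel co-receptor for Wnt7a and Wnt7b, had 10.4 CPM in culture 4, against 20.3, 19.6 and 21.4 CPM in cultures 1, 2 and 3. The other lower genes were the heparan sulfate sulfatase Sulf2 and the reported targets Ahr and Fosl1, with log2 differences of -0.75, -0.95 and -0.77. The higher ones were the atypical cadherin Fat4 and the receptor Tnfrsf19 (Troy), also a reported target, with log2 differences of 0.80 and 0.75. No transducer, nuclear cofactor or secretion gene passed the fold in either direction. Ccnd1, a cell cycle gene often named as a target, had a log2 difference of -0.20 and Myc one of -0.11.

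All 12 astrocyte markers were expressed, 3 of them more than 1.5-fold lower in culture 4. For this and the marker counts below, 5.48% of all 15217 genes that averaged 1 CPM or more were lower by that fold. The share that was higher by that fold was 2.22%. The astrocyte markers summed to 8128 CPM in culture 4 and to 8975 to 9155 CPM in cultures 1 to 3. Markers of other cells also moved with culture 4. The 12 fibroblast and meningeal markers summed to 1072 CPM in culture 4 and to 1980 to 2097 CPM in cultures 1 to 3. Of the 9 that averaged 1 CPM or more, 4 were lower in culture 4 by more than 1.5-fold and 2 were higher. The lower ones were the collagen genes Col1a1, Col1a2, Col3a1 and Col6a3. Col1a1 had 72.4 CPM in culture 4 against 570.1 to 622.6 CPM, and Col1a2 410.3 CPM against 719.3 to 749.4 CPM. The higher ones were Fbln1, by 2.69-fold, and Pdgfra, by 1.62-fold. The 12 microglial markers summed to 102.6 CPM in culture 4 and to 156.4 to 168.2 CPM in cultures 1 to 3. By more than 1.5-fold, 7 of the 12 were lower in culture 4. The 10 endothelial markers summed to 54.0 CPM in culture 4 and to 69.9 to 78.2 CPM in cultures 1 to 3. Only 3 of the 10 endothelial markers were expressed. Slco1a4 alone had 46.1 CPM in culture 4 and 55.3 to 63.9 CPM in cultures 1 to 3. The 10 mural markers summed to 2960 CPM in culture 4 and to 3064 to 3247 CPM in cultures 1 to 3. Most of that sum was Acta2, at 1950 CPM in culture 4 and 1851 to 1973 CPM in cultures 1 to 3. The 10 proliferation genes were all higher in culture 4, as were 56.1% of all genes that averaged 1 CPM or more. Only 1 of the 10 was higher by more than 1.5-fold. Their sum was 2340 CPM in culture 4 and 1759 to 1788 CPM in cultures 1 to 3. Summed markers of neurons were 414.7 CPM in culture 4 and 427.7 to 443.0 CPM in cultures 1 to 3, those of oligodendrocytes 1849 CPM and 1730 to 1774 CPM, those of their precursors 1754 CPM and 1581 to 1634 CPM, and those of ependyma and choroid plexus 222.5 CPM and 217.2 to 237.5 CPM. Olig1, Olig2 and Sox10 are in both the oligodendrocyte and the precursor list, so these sums are not separate readings. Pdgfra of the precursor list is also in the fibroblast list, and Cspg4 is also in the mural list. Of the oligodendrocyte markers 6 of 10 were expressed, and of the precursor markers 5 of 8. No marker of any list was without counts. In bulk RNA a smaller number of cells of a type and less RNA per cell cannot be told apart, and the part of these markers in the values of the Wnt genes was not tested.

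The spread of the members between cultures was measured with edgeR as the BCV, its biological coefficient of variation, fitted over all 17105 genes that passed its filter on low counts. Of the 59 members 41 passed, with a median BCV of 0.108, and the median over all genes was 0.0941. The largest values were those of Lgr6 (0.28), Notum (0.273) and Sfrp4 (0.248), and the smallest those of Lrp6 (0.0579), Fzd7 (0.0585) and Fzd2 (0.0589). Without culture 4 the median was 0.0256 for the members that passed and 0.0255 for all genes. Leaving out culture 1, 2 or 3 instead gave medians of 0.117 to 0.128 for the members.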

How the data were processed

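The deposited table holds estimated counts per gene for 4 libraries, with RefSeq identifiers and combined exon lengths, and 31.7% of its values above 0 are not whole. The build GRCm38.p6 is named in the submitters' processing notes, along with STAR 2.7.2b, featureCounts 1.6.4, cutadapt 1.17 and bcl2fastq 2.20.0.422. The sources used here do not give the roles or settings of these tools. Libraries were made from poly-A RNA with a stranded kit, per the labels' protocols. CPM and RPKM were computed here from the deposited counts with Python 3.11.15 and pandas 2.3.3. Counts were rounded to whole numbers for edgeR 4.0.16 (R 4.3.3; TMM, intercept-only design), whose BCV values are drawn towards the trend of all genes. On simulated counts that fit gave the spread of most genes closely but understated that of genes made more variable than the rest. GENCODE M21 transcript lengths were matched by GeneID for all 59 members, a setting chosen after seeing the data. Where such a transcript is longer than the combined exons, reads in its extra bases may not have been counted. The GENCODE value of such a gene may therefore be too low.

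Members and gene lists were chosen with earlier results of these data known. Every member is named, and values per library are given for the first 2 genes of each family by mean RPKM, for expressed single genes and for members more than 1.5-fold apart in culture 4. From the other lists the genes of highest RPKM and those past that fold could be named, and Porcn, Wls, Myc and Csnk1a1 were added after their values were seen. Alternatives were other library sizes, minimums, pseudocounts and lengths, cultures 1 to 3 summed, and each library left out. No library shared its counts with another within sampling noise, so each was kept as 1 sample. That comparison can find a library that was sequenced again. It cannot show that the cultures came from separate preparations. The series has 1 group, so no p-value is given.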

Additional observations from a re-analysis of the deposited data

Results flagged for a closer look

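In 8 of the 35 expressed members (22.9%) a single culture stood far from the other 3 by Dixon's criterion for 4 values, and in each of these it was culture 4. Of all 14725 expressed genes 2232 (15.2%) did so, 2032 of them through culture 4, and chance gives about 1 in 20. Levels in culture 4 were lower for Notum, at 4.84 CPM against 10.3 to 10.7 CPM in cultures 1 to 3, for Sfrp4, at 2.43 CPM against 4.50 to 4.83 CPM, and for Lgr4, at 23.9 CPM against 27.9 to 28.3 CPM. Wnt5a stood at 28.2 CPM in culture 4 against at least 38.6 CPM, and Wnt7b at 17.8 CPM against 30.8 to 33.4 CPM. Sfrp1 was higher, at 221.7 CPM in culture 4 against 140.1 to 149.1 CPM, as were Apc, at 301.3 CPM against 238.5 to 245.2 CPM, and Fzd9, at 9.91 CPM against 7.31 to 7.62 CPM. The log2 RPKM ratio of Sfrp1 to Sfrp4 stood apart likewise, at 5.16 in culture 4 against 3.51 to 3.70.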

How the results depend on the processing

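No paired analysis was possible because the series has 1 group. Under the alternatives tried, counts of expressed members ranged from 31 to 38 of the 59, and of other pathway genes from 101 to 110. Among only the 49 members with whole counts, 25 were expressed. Families with a leading member numbered 9 when culture 4 was left out or GENCODE lengths were used, and 7 in CPM. The top genes were not always the same. By GENCODE lengths Tcf7 was top in place of Tcf7l1, and by mean CPM Fzd3, Lrp6 and Tcf7 were top in their families. Without the length term the log2 ratio of Lrp5 to Lrp6 turned round, to -0.12, and others moved to 0.39 for Fzd1 to Fzd2, 5.34 for Sfrp1 to Sfrp4, 3.57 for Lgr4 to Lgr6, 0.36 for Axin1 to Axin2 and 0.050 for Tcf7l1 to Tcf7l2. With GENCODE lengths they were 1.32 for Wnt7a to Wnt5b, 5.23 for Sfrp1 to Sfrp4 and 0.34 for Tcf7l1 to Tcf7l2. The length is the only thing that differs in these settings. The median BCV of the members lay between 0.0256, without culture 4, and 0.128 when each library was left out in turn. Members more than 1.5-fold lower in culture 4 numbered 9, and higher 3, when all members with more than 3 counts were taken, 2 and 0 passed at 2-fold, and 0 were higher with TMM or RLE library sizes. Longest RefSeq transcripts were planned as a length and were not used here. With a pseudocount of 0.5 CPM, Rspo3 no longer passed the fold, at a log2 difference of -0.46, and 4 members were lower. Depth limits the values of genes under 1 CPM.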

Other observations

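Several Wnt genes lie next to each other in the genome, and the expressed Wnt9a is beside one with no counts. Wnt9a (chromosome 11, 59306849 to 59333552, plus strand) had 8.20 CPM, while Wnt3a (59248036 to 59290751, minus strand), 16097 bases away, had no count in any library. In the other neighbouring pairs neither gene was expressed. Wnt6 and Wnt10a on chromosome 1 are 6696 bases apart and had 0.037 and 0.025 CPM. Wnt10b and Wnt1 on chromosome 15 are 11650 bases apart and had 0.20 CPM and no count. Wnt9b and Wnt3 on chromosome 11 overlap on opposite strands and had 0.037 and 0.10 CPM.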
